A study of Mus musculus with 6 samples.

Results

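The 10 genes described here encode products that hold back, or are switched on by, signalling through the extracellular signal-regulated kinase (ERK). They are the MAP kinase phosphatase genes Dusp1, Dusp4, Dusp5 and Dusp6, the Sprouty genes Spry1, Spry2 and Spry4, the Spred genes Spred1 and Spred2, and the transcription factor gene Etv5. They were taken by name: a row of the value table entered if the platform annotation paired it with that gene symbol alone, and the row of highest mean over the 6 arrays stood for a gene with several rows. All 10 genes had a row, out of 22180 genes measured by the same rule. The cells were cardiomyocytes cultured from hearts of 1-day-old C57BL/6 mice, enriched by pre-plating and kept for 12 h in hypoxia (2% O2, 5% CO2, 93% N2). A group of 3 samples received FGF21, a secreted fibroblast growth factor that circulates as a hormone, at 1 µg/ml, and 3 control samples did not. Both groups were hypoxic, and the stated question was which genes respond to FGF21 in this state. Total RNA of each sample was hybridised to 1 Affymetrix Mouse Gene 2.0 ST array, and the labels number the samples of each group 1 to 3 as biological replicates. No label ties them to separate litters or cultures, so the p-values reflect only how these samples differ, and part of that may be technical.

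Fibroblast growth factors bind receptor tyrosine kinases, and FGF21 in addition needs the co-receptor beta-Klotho, encoded by Klb. The receptors pass the signal through adaptors to Ras, Raf, the kinase MEK and ERK. Active ERK raises the transcription of its own inhibitors, so levels of Dusp6, Sprouty and Spred transcripts and of Etv5 are widely used as a readout of FGF and ERK activity. Dual-specificity phosphatases remove phosphate from MAP kinases, Sprouty and Spred proteins act higher up, between the receptor and Raf, and Etv5 belongs to the PEA3 group of ETS factors that carry the transcriptional response to FGF.

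With FGF21, none of the 10 feedback genes differed from control past the threshold, a limma p under 0.05 after Benjamini-Hochberg adjustment over all genes. The adjusted p of limma ran from 0.316 for Dusp1 to 0.992 for Spry1, and their median log2 difference was 0.01, against -0.01 over all genes. With FGF21, 6 of the 10 were higher and 4 lower, where 47.8% of all genes were higher. The count has to be read against the background, since limma called 0 of 22180 genes (0%) at that threshold. At an unadjusted limma p under 0.05 the members gave 1 of 10, Dusp1, and all genes gave 11.7%. The groups did not overlap for 2 of the 10 and for 17.1% of all genes. Dusp1 lay apart on the higher side, as 8.99% of all genes did, and Spry4 on the lower side, as 8.14% did. These shares are close to the background and are no result about these genes. The sizes were small as well: the median absolute log2 difference was 0.06 for the 10 genes and 0.07 for all genes. In bulk RNA a smaller number of cells of one type and less RNA per cell cannot be told apart.

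**Figure D1:**
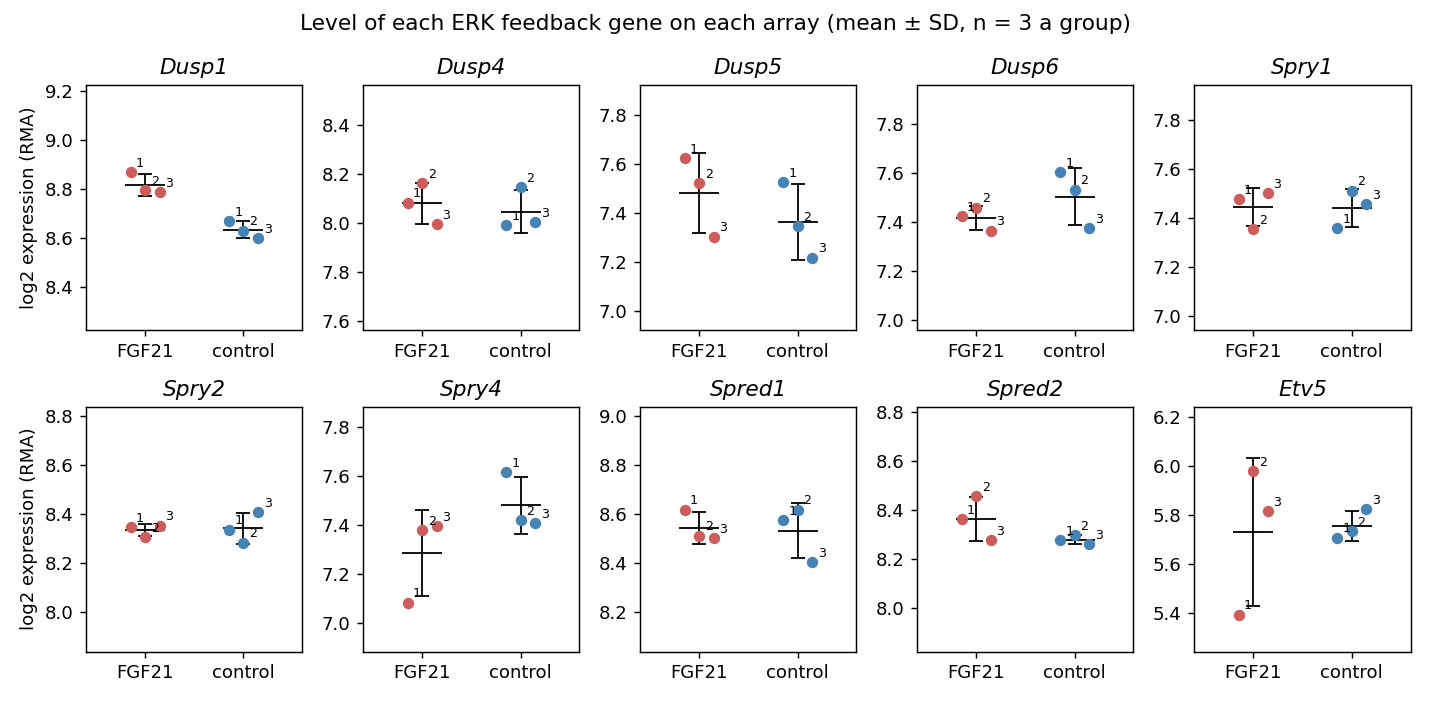
Level of each gene on each array (log2 expression, y axis, a span of 1 log2 unit in every panel) with FGF21 (red) and in control (blue); numbers are replicate numbers, and bars give the mean ± SD of 3 arrays. Dusp1 is higher on all 3 FGF21 arrays and Spry4 lower, while the groups of the other 8 genes overlap.

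Among the 4 phosphatase genes of the 10, Dusp1 had the largest difference. It encodes a nuclear phosphatase of stress-activated MAP kinases and ERK. Its log2 level was 8.87, 8.79 and 8.79 on the FGF21 arrays, against 8.67, 8.63 and 8.60 on the control arrays. Every FGF21 array was above every control array. The means were 8.82 ± 0.0445 with FGF21 and 8.63 ± 0.0348 in control (SD, n = 3 each), a log2 difference of 0.18 ± 0.06 (SE) or 1.14-fold (95% interval 1.03 to 1.25). The limma p was 0.0139 before and 0.316 after adjustment over all genes, and an exact two-sided permutation test gave 0.1, the smallest p that 3 against 3 arrays allow. With quantile normalization applied again the log2 difference of Dusp1 was 0.13 and its unadjusted limma p 0.0772. With median centring it was 0.22, at a limma p of 0.00551 before and 0.199 after adjustment.

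Dusp6, the cytoplasmic ERK phosphatase that is the usual readout of FGF signalling, stood at 7.43, 7.46 and 7.37 with FGF21 and at 7.60, 7.53 and 7.38 in control. The lowest control array lay between the FGF21 arrays, so the groups overlapped. Its log2 difference was -0.09 ± 0.07 (SE), with a fold of 0.942 (95% interval 0.840 to 1.06, limma adjusted p of 0.678). It was -0.04 without control replicate 1 and -0.15 without control replicate 3. A second row named Dusp6 had a mean of 4.26, below the median of every array. Its log2 difference was -0.09 ± 0.07 (SE), but whether this row was above background was not tested.

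Dusp5, a nuclear phosphatase specific for ERK, stood at 7.62, 7.52 and 7.30 with FGF21 and at 7.53, 7.35 and 7.22 in control. In both groups replicate 1 was the highest array and replicate 3 the lowest. The spread within a group (SD of 0.164 with FGF21 and 0.155 in control) was larger than the log2 difference. That difference was 0.12 ± 0.10 (SE, limma adjusted p of 0.677). A fit with a replicate block, which takes out what same-numbered arrays share, gave 0.12 ± 0.07 (SE, limma adjusted p of 0.483). Leaving out control replicate 3 gave 0.05, and leaving out FGF21 replicate 3 gave 0.21. Dusp4, a nuclear phosphatase of ERK and other MAP kinases, stood at 8.08, 8.16 and 8.00 with FGF21 and at 7.99, 8.15 and 8.00 in control. Its groups covered nearly the same range, and the difference was 0.03 ± 0.07 (SE, limma adjusted p of 0.892).

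The promoters of 3 phosphatase genes are shown to set Dusp1, which had the largest upward difference of the 10 feedback genes, beside its ERK-specific relatives Dusp5 and Dusp6. Each is the 250 bases before the annotated start, from RefSeq, written 5′ to 3′ on the strand of the gene. Capitals mark the searched motifs found on either strand. They were the full cAMP response element, written TGACGTCA, and its shorter form, written TGACG. The others were the AP-1 site, written TGANTCA, the core of ETS sites, written CCGGAA, and the CArG box bound by serum response factor.
Dusp1 (GRCm38.p6, chr17:26508473-26508722, minus strand): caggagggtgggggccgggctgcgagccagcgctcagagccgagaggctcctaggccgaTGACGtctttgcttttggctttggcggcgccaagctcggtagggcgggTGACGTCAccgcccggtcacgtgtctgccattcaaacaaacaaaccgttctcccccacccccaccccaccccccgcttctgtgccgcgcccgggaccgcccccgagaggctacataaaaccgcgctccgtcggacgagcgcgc
Dusp5 (GRCm38.p6, chr19:53528895-53529144, plus strand): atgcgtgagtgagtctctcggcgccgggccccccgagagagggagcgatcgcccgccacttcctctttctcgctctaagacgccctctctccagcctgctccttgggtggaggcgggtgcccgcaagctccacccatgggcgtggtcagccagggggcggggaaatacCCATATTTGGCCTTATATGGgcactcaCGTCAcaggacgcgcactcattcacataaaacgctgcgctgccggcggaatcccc
Dusp6 (GRCm38.p6, chr10:99262981-99263230, plus strand): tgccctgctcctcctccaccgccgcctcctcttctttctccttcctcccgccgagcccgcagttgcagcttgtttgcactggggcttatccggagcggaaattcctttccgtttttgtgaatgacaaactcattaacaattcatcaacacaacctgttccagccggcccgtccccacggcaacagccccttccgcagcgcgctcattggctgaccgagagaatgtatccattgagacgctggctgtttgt

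Motifs were searched in windows from 250 bases before to 50 bases after the start, which the reference table held for 8 of the 10 genes, all but Dusp4 and Spry4. The full element TGACGTCA was found in 1 of the 8, Dusp1, where it lies 143 to 136 bases before the start, and in 1.79% of all 32851 windows. A further TGACG in Dusp1, 191 to 187 bases before the start, does not overlap it. This shorter form was found in 3 of the 8, Dusp1, Dusp5 and Spred2, and in 20.8% of all windows. The CArG box was found in Dusp5 alone, as an adjoining pair from 82 to 63 bases before the start, and in 1.63% of all windows. CCGGAA was found in 1 of the 8, Spry2, past the start, and in 14.9% of all windows, and TGANTCA in 0 of the 8 and in 7.81% of all windows. These matches are a description of the letters in the windows. No gene with a match passed limma over all genes, but 0 of 22180 genes did, so this says nothing about the motifs.

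The 3 Sprouty genes encode inhibitors that are induced by receptor tyrosine kinases and act between the receptor and Raf. Spry4 stood at 7.08, 7.38 and 7.40 with FGF21 and at 7.62, 7.42 and 7.41 in control. Every FGF21 array was below every control array, but replicates 2 and 3 of the groups were close, and replicate 1 was far below the others with FGF21 and far above the others in control. The means were 7.29 ± 0.176 with FGF21 and 7.48 ± 0.116 in control (SD, n = 3 each), with a log2 difference of -0.20 ± 0.10 (SE), a fold of 0.873 (95% interval 0.751 to 1.01) and a limma adjusted p of 0.471. The exact two-sided permutation test gave 0.1. The difference was -0.09 without FGF21 replicate 1 and -0.13 without control replicate 1. A further round of quantile normalization gave -0.24 for Spry4, at an unadjusted limma p of 0.0285. Median centring gave -0.16, at an unadjusted limma p of 0.141, and array weights gave -0.14, at 0.139.

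Spry2 stood at 8.34, 8.31 and 8.35 with FGF21 and at 8.34, 8.28 and 8.41 in control, a difference of -0.01 ± 0.06 (SE). All 3 FGF21 arrays lay inside the range of the control arrays. Spry1 stood at 7.48, 7.35 and 7.50 with FGF21 and at 7.36, 7.51 and 7.46 in control, a difference of 0.00 ± 0.07 (SE). For both genes the groups overlapped almost completely, with limma adjusted p-values of 0.975 for Spry2 and 0.992 for Spry1, and the 95% interval of the fold ran from 0.902 to 1.10 for Spry2 and from 0.898 to 1.12 for Spry1.

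The Spred genes encode membrane proteins that hold back the activation of Raf by Ras. Spred1 stood at 8.62, 8.51 and 8.50 with FGF21 and at 8.58, 8.62 and 8.41 in control, with a log2 difference of 0.01 ± 0.08 (SE). Its highest values in the groups were equal to 2 decimals. Spred2 stood at 8.36, 8.46 and 8.28 with FGF21 and at 8.28, 8.30 and 8.26 in control, with a difference of 0.09 ± 0.07 (SE). FGF21 replicates 1 and 2 were above all 3 control arrays, and FGF21 replicate 3 was within them. For Spred2 the difference became 0.04 without FGF21 replicate 2, 0.13 without FGF21 replicate 3 and 0.02 after a further quantile normalization. The limma adjusted p was 0.970 for Spred1 and 0.648 for Spred2.

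Etv5 was the dimmest of the 10 in the order of all genes by mean level, with 39.1% of genes at or below it, against 73.4% or more for the others. It stood at 5.39, 5.98 and 5.82 with FGF21 and at 5.71, 5.74 and 5.83 in control. The FGF21 arrays held both its lowest and its highest value, and their SD was 0.302, against 0.0611 in control. The log2 difference was -0.03 ± 0.13 (SE, limma adjusted p of 0.958), and leaving out FGF21 replicate 1 gave 0.14, while leaving out FGF21 replicate 2 gave -0.15. A second, dimmer row named Etv5 had a difference of -0.13 ± 0.07 (SE). The main row had a mean of 5.74 and the second 5.24, both below the median of every array. The normalization by robust multi-array average compresses differences of dim genes, and whether Etv5 was above background was not tested.

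**Figure D2:**
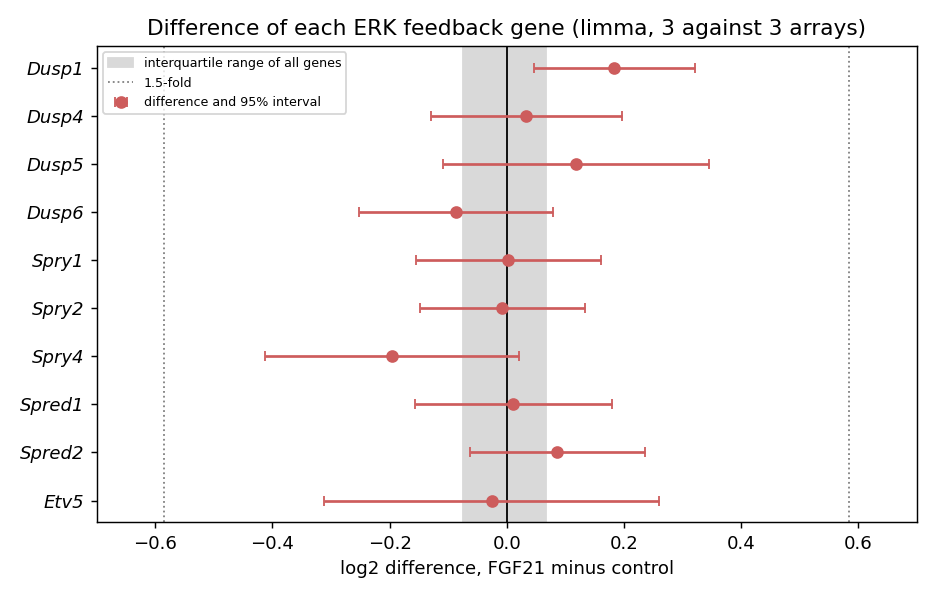
Log2 difference of each gene, FGF21 minus control (x axis), with its 95% interval from limma on 3 against 3 arrays; the grey band runs between the quartiles of all genes (-0.08 to 0.07) and dotted lines mark 1.5-fold either way. Of the 10 intervals, 1, that of Dusp1, leaves out 0, and all 10 lie between the dotted lines.

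A p that misses the threshold does not show that a gene is equal in both groups, so the intervals give what these arrays leave room for. For all 10 genes the 95% interval of limma lay within 1.5-fold either way, as it did for 98.8% of all genes. The interval that reached farthest upward was that of Dusp5, to 1.27-fold higher with FGF21, and the one that reached farthest downward was that of Spry4, to 1.33-fold lower. All samples were taken after 12 h of hypoxia, and earlier times were not analysed here. The time between the addition of FGF21 and sampling is not given here.

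The 10 genes did not move together over the arrays. Their mean deviation, each gene centred on its own mean over the 6 arrays, was -0.02, 0.05 and -0.01 on the FGF21 arrays and 0.02, 0.01 and -0.05 on the control arrays. FGF21 replicate 1 shows how the genes diverged: on it Etv5 deviated by -0.35 and Spry4 by -0.30, while Dusp5 deviated by 0.20 and Dusp1 by 0.14. Control replicate 3 was the lowest array for Dusp1, Dusp5, Spred1 and Spred2 and the highest control array for Spry2 and Etv5. Of 10553 other genes above the median level, the 5 whose values over the 6 arrays were most like this mean were Susd4, Bicral, N4bp1, Kat7 and Parp16, with Pearson correlations of 0.991, 0.988, 0.987, 0.985 and 0.982. They were picked as the highest of many over only 6 arrays, and they share the arrays and their normalization with the 10 genes.

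**Figure D3:**
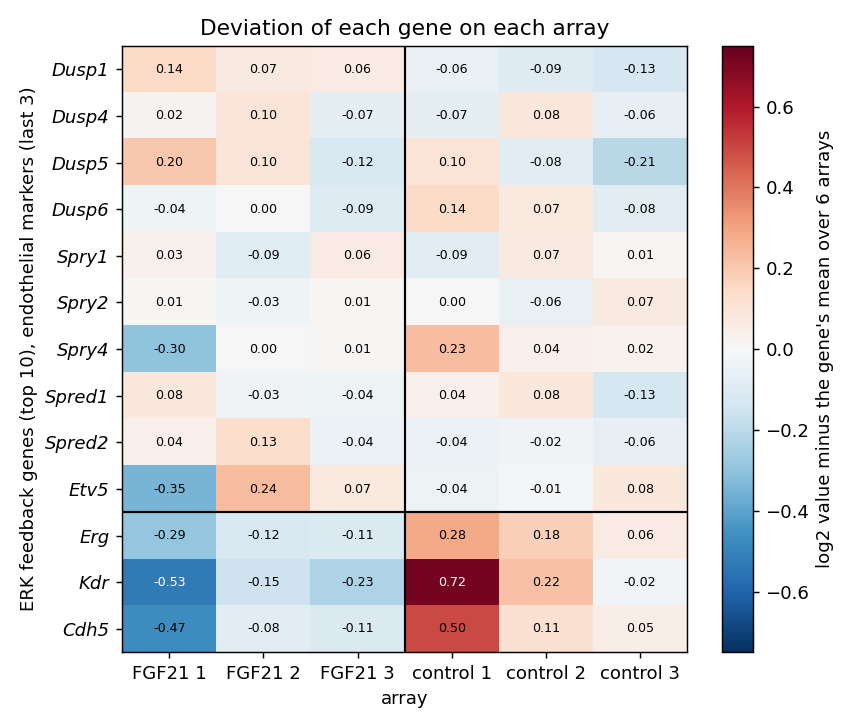
Log2 value of each gene on each array minus the mean of that gene over the 6 arrays (colour and number), with the 3 FGF21 arrays left of the 3 control arrays; the last 3 rows are the endothelial markers Erg, Kdr and Cdh5. Spry4 and these markers are lowest on FGF21 replicate 1 and highest on control replicate 1.

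Markers of other heart cells were read on the same arrays. Endothelial markers were lower with FGF21 for 13 of 15 genes, with a median log2 difference of -0.22 (-0.14 without FGF21 replicate 1). Their list mean ran from 7.18 to 7.35 on the FGF21 arrays and from 7.42 to 7.61 on the control arrays, lowest on FGF21 replicate 1 and highest on control replicate 1, as for Spry4. Kdr, the VEGF receptor gene, stood at 6.85, 7.23 and 7.15 with FGF21 and at 8.10, 7.60 and 7.36 in control. Mural cell markers had a list mean of 8.61 to 8.73 with FGF21 and 8.77 to 9.00 in control, with 6 of 8 genes lower. The differences were largest for Kcnj8 (-0.65), Rgs5 (-0.49) and Abcc9 (-0.45). Cnn1 had -0.17, Acta2 -0.04 and Pdgfrb -0.03, while Myh11 (0.16) and Cspg4 (0.02) were higher, so the list did not fall as a whole. Epicardial markers had a list mean of 7.99 to 8.12 with FGF21 and 7.85 to 7.96 in control, with 5 of 6 higher. No marker gene in these lists passed limma over all genes, and all had a value on every array. The part of these cells in the values of Spry4, Dusp1 or any other feedback gene was not tested. Tnnt2, the cardiac troponin T gene, picked after its values were seen, stood at 13.12 to 13.17 with FGF21 and 13.09 to 13.15 in control. The fibroblast gene Postn, picked likewise, stood at 12.84 to 12.93 with FGF21 and 12.79 to 12.82 in control. Both were among the brightest of all genes, so their levels do not test the labelled cell type. Of 13 cardiomyocyte markers 5 were higher and 8 lower with FGF21, and of 10 fibroblast markers 4 were higher and 6 lower. The cardiomyocyte list mean ran from 10.54 to 10.60 with FGF21 and from 10.54 to 10.73 in control. It was highest on control replicate 1. Median differences were -0.01 for cardiomyocyte markers, -0.01 for fibroblast, -0.11 for mural, 0.03 for leukocyte, 0.13 for epicardial and -0.19 for the 2 measured Schwann cell markers.

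The rest of the pathway was read from 5 lists. Of 52 genes written, 44 had a row of their own; the other 8 were not analysed here. Of the 44, 22 were higher and 22 lower with FGF21 (29 and 15 with median centring), and 0 passed limma over all genes (smallest adjusted p of 0.179). At an unadjusted limma p under 0.05 there were 7 of 44, or 15.9%, where all genes gave 11.7%. Of these, 6 were higher with FGF21 (all genes, 6.59%) and 1 lower (all genes, 5.11%). The groups did not overlap for 22.7% of the 44, against 17.1% of all genes. Of the 44, 7 lay apart on the higher side (all genes, 8.99%) and 3 on the lower side (all genes, 8.14%).

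**Figure D4:**
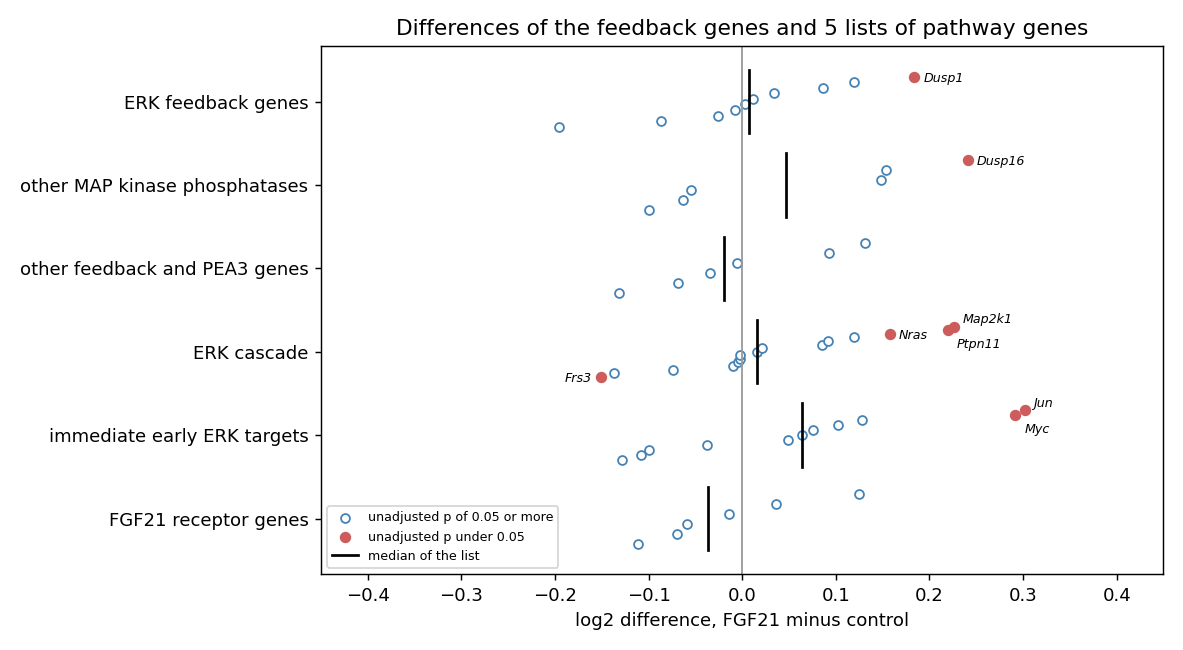
Log2 difference of each gene, FGF21 minus control (x axis), for the 10 ERK feedback genes and 5 lists of pathway genes (rows); filled points have an unadjusted limma p under 0.05, and black bars give the median of each list. Filled points lie mostly to the right, but every list has genes on both sides of 0 and a median between -0.04 and 0.06.

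Of the 6 other MAP kinase phosphatase genes, 3 were higher and 3 lower with FGF21. Their median was 0.05, or -0.01 without FGF21 replicate 2 and 0.15 over the 5 above the median level of all genes. Dusp16, which encodes a phosphatase that acts mainly on JNK, stood at 7.74, 7.88 and 7.85 with FGF21 and at 7.63, 7.49 and 7.62 in control. Its groups did not overlap, and its log2 difference of 0.24 ± 0.07 (SE, limma adjusted p of 0.263) was larger than that of any of the 10 feedback genes. Dusp8 had a difference of 0.15, Dusp10 0.15 (0.07 without FGF21 replicate 2) and Dusp9 -0.10 (-0.03 to -0.15 with 1 array left out).

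Among 6 other feedback and PEA3 genes, 2 were higher with FGF21, and the median was -0.02; with median centring 4 were higher, at a median of 0.02. Il17rd, which encodes the FGF inhibitor Sef, had a difference of -0.13 ± 0.08 (SE, limma adjusted p of 0.556), or -0.08 without control replicate 1 and -0.22 without control replicate 3. The PEA3 genes Etv4 and Etv1, relatives of Etv5, had differences of 0.13 and 0.09, and Spred3 -0.07. The sign of both PEA3 genes turned with 1 array left out, over a range of -0.02 to 0.28 for Etv4 and -0.01 to 0.22 for Etv1. None of the 6 reached an unadjusted limma p under 0.05.

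Of 15 measured genes of the cascade, 8 were higher and 7 lower with FGF21, with a median of 0.02. This balance moved with the scaling: 6 were higher and 9 lower, at a median of -0.04, after a further quantile normalization, and 12 higher and 3 lower, at 0.05, with median centring. Map2k1, which encodes the ERK kinase MEK1, stood at 9.70, 9.67 and 9.65 with FGF21 and at 9.52, 9.43 and 9.40 in control. The groups did not overlap, and the difference was 0.23 ± 0.06 (SE, limma adjusted p of 0.250). Ptpn11, the gene of the phosphatase SHP2 that carries signals from receptors to Ras, had a difference of 0.22. Nras had 0.16, while the adaptor gene Frs3 had -0.15, and for all 3 the groups did not overlap. Over the 15 genes, 4 lay apart on the higher side (all genes, 8.99%) and 2 on the lower side (all genes, 8.14%).

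The immediate early genes, transcribed within minutes of ERK activation, had a median of 0.06 over 11 measured genes. Jun, a subunit of AP-1, stood at 8.94, 8.96 and 8.90 with FGF21 and at 8.61, 8.73 and 8.56 in control, a difference of 0.30 ± 0.07 (SE, limma adjusted p of 0.179). Myc stood at 8.70, 8.97 and 8.83 with FGF21 and at 8.59, 8.57 and 8.47 in control, a difference of 0.29 ± 0.08 (SE, limma adjusted p of 0.241). Both had groups that did not overlap. Over the 11 genes 2 lay apart on the higher side (all genes, 8.99%) and 1 on the lower side (all genes, 8.14%). Junb, at -0.13, and Egr1, at 0.13, did not reach an unadjusted limma p under 0.05.

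Over 6 genes of FGF receptors, Klb and Fgf21 itself the median log2 difference was -0.04, and 2 were higher. The median was 0.03 without FGF21 replicate 3, with 4 higher, and 0.08 over the 2 genes above the median level of all genes. Fgfr1 had a difference of 0.04, Klb -0.06, Fgf21 -0.01, Fgfr2 0.12, Fgfr3 -0.07 and Fgfr4 -0.11. Klb was dim, at a mean of 5.13 with FGF21 and 5.19 in control, with 25.1% of all genes at or below it. That share was 33.1% for Fgfr3, 33.3% for Fgfr4 and 41.5% for Fgf21. Whether these dim genes were above background was not tested, so their small differences do not show stable levels. Fgfr1, Klb and Fgf21 changed sign with 1 array left out. None of the 6 reached an unadjusted limma p under 0.05, and their groups overlapped.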

How the data were processed

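Total RNA of 3 FGF21 and 3 control samples was measured on 1 array each. The authors deposited log2 values from RMA, and the submitters' processing notes name R 3.2.2 and affy; which chip definition and build they used is not given in the sources used here. RMA equalises the arrays, so a change shared by every gene would not show. Array medians ran from 5.76 to 5.79 with FGF21 and from 5.81 to 5.83 in control, and correlations between arrays from 0.990 to 0.994; 0 pairs of arrays held identical values. The number of arrays limits the precision.

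Of 41345 rows, 23521 had 1 symbol in the platform annotation, 1814 had several and 16010 were not listed there. The row of highest mean was kept for the 1082 genes with several rows. limma 3.58.1 in R 4.3.3 (lmFit, eBayes, no covariate, two-sided) was fitted to all 22180 genes, with Benjamini-Hochberg adjustment and a threshold of 0.05; SE and 95% intervals are limma's. The fit was run on simulated data with planted changes larger than any difference of the 10 genes. That run does not show whether changes of the size seen here would be found. Group and replicate came from the sample titles. The members and lists were chosen with earlier results of these data known. Named are the 10 members, the 5 genes most like them, Fgfr1, Klb, Fgf21 and up to 4 genes of smallest p per pathway list. Up to 3 genes of smallest p are named per marker list, except that all 8 mural markers are named. Tnnt2 and Postn were picked after their values were seen. Gene numbers and symbols of all 10 members matched RefSeq. Alternatives were a replicate block, each array left out, 2 filters on dim genes, all rows or their mean, quantile normalization again, median centring, weights per array, a trend and robust prior, other thresholds, a plain statistic with equal variances and shorter motifs.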

Additional observations from a re-analysis of the deposited data

How the results depend on the processing

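Under 16 settings, each of the 10 genes stayed above the adjusted threshold (for Etv5 15 settings, since it drops out above the median level); the smallest limma adjusted p of any was 0.199, for Dusp1 with median centring. Dusp1, Dusp5, Dusp6, Spry4 and Spred2 kept their sign in all 16, with Dusp5 from 0.0458 to 0.209, Dusp6 from -0.151 to -0.0368 and Spred2 from 0.0221 to 0.130. The other 5, all near 0, changed sign 19 times. With an array left out, Dusp4 ran from -0.00780 to 0.0833, Spry1 from -0.0394 to 0.0477, Spry2 from -0.0375 to 0.0250, Spred1 from -0.0530 to 0.0540 and Etv5 from -0.150 to 0.142. With quantile normalization applied again Dusp4 was -0.0300, Spry1 -0.0418, Spred1 -0.0548 and Etv5 0.00883; with median centring Spry2 was 0.0284 and Etv5 0.0103; with array weights Spry1 was -0.00942, Spred1 -0.00655 and Etv5 0.0247. The median of the 10 was -0.0359 with quantile normalization applied again, 0.0430 with median centring and from -0.00242 to 0.0458 with an array left out. Of the 10, 1 passed an unadjusted p under 0.05, and 2 without FGF21 replicate 3 (Dusp1 and Spry4).

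Over all genes, where 0 were called, limma called 58 with only genes above the median level, 26 above the lowest 25%, 2 with the mean of all rows, 5 with quantile normalization applied again, 12 with median centring, 16 with a trend and robust prior, 2 with array weights and from 0 to 2 with an array left out; none was a feedback or pathway gene. Genes at an unadjusted p under 0.05 numbered 2594 and were 56.3% higher with FGF21, or 79.9% after median centring, which moved the median of all genes by 0.04; they numbered 1710 without FGF21 replicate 2 and 1700 with only genes above the median level. Median centring subtracts the median of each array, which was lower on every FGF21 array, so it raised every difference by the same 0.04. The cause of the other shifts was not tested. TGACG in place of TGACGTCA was in 3 of 8 promoters (20.8% of all windows), and GGAAG in place of CCGGAA in 6 (71.4% of all windows). Of the 44 pathway genes, 17 changed sign under 1 or more settings. Same-numbered arrays deviated together at correlations of 0.103, 0.158 and 0.00653, and differently numbered arrays at -0.160 to 0.0416. The closest array bore the same number for 4 of 6. The labels do not state that the numbers mark pairs, so the main fit did not use them, and whether they do was not tested. The fit with a replicate block called 0 genes, and 0 of the 10, with Dusp1 at a limma adjusted p of 0.297. It gave 2902 genes at an unadjusted limma p under 0.05, against 2594 without the block.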
